A study of Mus musculus with 12 samples.

Results

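Zfp36, Zfp36l1, Zfp36l2, Rc3h1, Rc3h2, Zc3h12a and Pdcd4, 6 mRNA decay factors and an inhibitor of translation, were followed in OT-I cell cultures given corticosteroid. They are 7 of the 39462 genes with a symbol on the array, and were chosen by name, since Zfp36l2 and Pdcd4 had been seen to be higher with corticosteroid in these same data. Their values with against without corticosteroid, and the difference of that effect between the peptides, are therefore given as a description with no test. The difference between the peptides was not the ground for the choice and was tested. That test is not independent of the choice, since its spread is taken from the same arrays, treated and untreated.

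OT-I cells are CD8 T cells of transgenic mice that carry a single T cell receptor for an ovalbumin peptide on a class I molecule. Splenocytes of these mice were primed in culture with N4, the strong form of that peptide, or Y3, an altered form that the receptor binds more weakly, and each was grown without or with corticosteroid for 4 days. The 4 groups, N4, N4 with corticosteroid, Y3 and Y3 with corticosteroid, held 3 arrays each, labelled biological replicates 1 to 3, and all 12 carry the same receptor. The sources used here do not name the steroid, its dose, the age of the mice, or whether replicates are separate mice or cultures, so p-values measure the spread between these arrays, which may be technical.

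The messenger RNAs of cytokines, costimulatory receptors and growth regulators often carry destabilising elements, and T cells limit them through RNA-binding proteins. The ZFP36 family binds AU-rich elements and recruits the CCR4-NOT complex, which removes the poly(A) tail, Roquin-1 and Roquin-2 (Rc3h1, Rc3h2) bind stem-loops, and Regnase-1 (Zc3h12a) cuts such stem-loops itself. PDCD4 is not a decay factor: it binds the helicase eIF4A and holds back cap-dependent translation, and growth signalling marks it for breakdown.

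RefSeq's promoter table (GRCm38.p6) held a window for 6 of the 7 genes, and Zfp36l2 was the exception. Pdcd4 had a pair of annotated starts, and their windows are shown with that of Zfp36l1. They were chosen because these genes, with Zfp36l2, had an adjusted p under 0.05 for the peptide difference with replicate number as a block. For Zfp36l1 and Zfp36l2 this held under corticosteroid alone, and for none of these genes did it hold in the unblocked test. Each sequence is the 250 bases before the start, read 5′ to 3′ on the gene's own strand, with every CG dinucleotide in capitals. The windows are chr19:53891981-53892230 (plus strand) and chr19:53903101-53903350 (plus strand) for Pdcd4 and chr12:80113014-80113263 (minus strand) for Zfp36l1.
Pdcd4, upstream start: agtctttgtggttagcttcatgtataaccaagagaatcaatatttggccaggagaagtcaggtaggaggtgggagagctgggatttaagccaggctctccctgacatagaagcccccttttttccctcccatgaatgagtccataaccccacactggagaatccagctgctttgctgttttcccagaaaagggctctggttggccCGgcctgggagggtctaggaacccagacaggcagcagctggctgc
Pdcd4, downstream start: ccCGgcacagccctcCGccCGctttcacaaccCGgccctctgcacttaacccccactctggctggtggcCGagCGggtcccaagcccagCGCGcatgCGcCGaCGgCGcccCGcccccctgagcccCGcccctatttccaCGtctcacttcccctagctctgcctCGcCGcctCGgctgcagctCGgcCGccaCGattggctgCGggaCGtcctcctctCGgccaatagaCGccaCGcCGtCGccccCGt
Zfp36l1: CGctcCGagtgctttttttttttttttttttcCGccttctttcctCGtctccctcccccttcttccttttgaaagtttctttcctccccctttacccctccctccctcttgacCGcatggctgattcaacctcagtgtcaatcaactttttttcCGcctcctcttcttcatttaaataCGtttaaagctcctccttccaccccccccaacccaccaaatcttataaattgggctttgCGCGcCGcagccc
The window of the upstream Pdcd4 start held 1 CG dinucleotide and 52.8% G and C, and that of the downstream start 29 and 72.4%. Zfp36l1 had 10 and 48.4%, against medians of 6 and 52.4% over the 32851 mouse windows in the table. The signals are per gene and do not tell the 2 Pdcd4 starts apart. The palindrome bound by the glucocorticoid receptor (GNACA and TGTNC with 3 bases of any kind between them, searched on both strands of the full 300 bases to 50 past the start) was found in 0 of the members' 7 windows and in 0.475% of all windows. The forkhead motif GTAAACA, which does not overlap it, was likewise found in 0 of the 7 and in 3.65% of all windows. This says only that these letters are not in these windows.

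Expression was measured as 1 signal per gene on each array, given below as log2 signal, in which a difference of 1 is a doubling. The 7 genes, on chromosomes 7 (Zfp36), 12 (Zfp36l1), 17 (Zfp36l2), 1 (Rc3h1), 2 (Rc3h2), 4 (Zc3h12a) and 19 (Pdcd4) in the array's annotation, had 1 row each. All 7 lay above the brightest background control (5.41 to 6.40) on all 12 arrays, as 13747 genes did. The labelled cell type was checked first. All 6 markers of CD8 T cells lay above background on every array. Of 6 B cell markers only Cd79b did, and of 7 markers of dendritic cells and macrophages only Cd68. For CD4 T cells (2), NK cells (2), neutrophils (2) and erythroid cells (3) no marker lay above background on all 3 arrays of any group. Tsc22d3, a classic glucocorticoid-induced gene, was higher with corticosteroid in all 6 pairs of arrays with the same peptide and number. In N4 it read 7.34, 7.86 and 8.61 without the steroid and 7.60, 9.34 and 10.07 with it. In Y3 it read 7.76, 8.52 and 8.41 without and 9.10, 10.24 and 10.13 with it. The N4 pair of replicate 1 differed least. Fkbp5, another such gene, was also higher in all 6 pairs.

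Corticosteroid was accompanied by higher Zfp36l2 and Pdcd4, the genes behind the choice, in every pair of arrays, under both peptides. The other 5 genes had mean differences between -0.16 and 0.14 (log2), with single pairs from -0.58 to 0.42. Zfp36l2 is the ZFP36 family member known for silencing ready-made cytokine mRNA in memory T cells. In N4-primed cells it read 12.49, 13.54 and 13.57 (replicates 1 to 3) without corticosteroid and 13.10, 14.23 and 14.32 with it. In Y3-primed cells it read 13.21, 14.16 and 13.92 without and 14.02, 14.54 and 14.95 with it. Every treated array exceeded its untreated counterpart, but replicate 1 was the lowest array of all 4 groups, so that untreated and treated groups overlapped. Averaged over the pairs, the difference was 0.68 ± 0.07 (log2, SD of 3 pairs, 1.60-fold) in N4 and 0.74 ± 0.33 (1.67-fold) in Y3.

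Pdcd4 followed the same order. In N4-primed cells it read 14.52, 15.73 and 15.73 without corticosteroid and 15.19, 16.76 and 16.49 with it. In Y3-primed cells it read 15.30, 16.71 and 16.29 without and 16.57, 17.57 and 17.26 with it. Again each treated array lay above its untreated counterpart, replicate 1 was lowest in 4 of 4 groups, and untreated and treated groups overlapped. The differences were 0.82 ± 0.19 (log2, SD of 3 pairs, 1.77-fold) in N4 and 1.03 ± 0.21 (2.04-fold) in Y3.

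**Figure D1:**
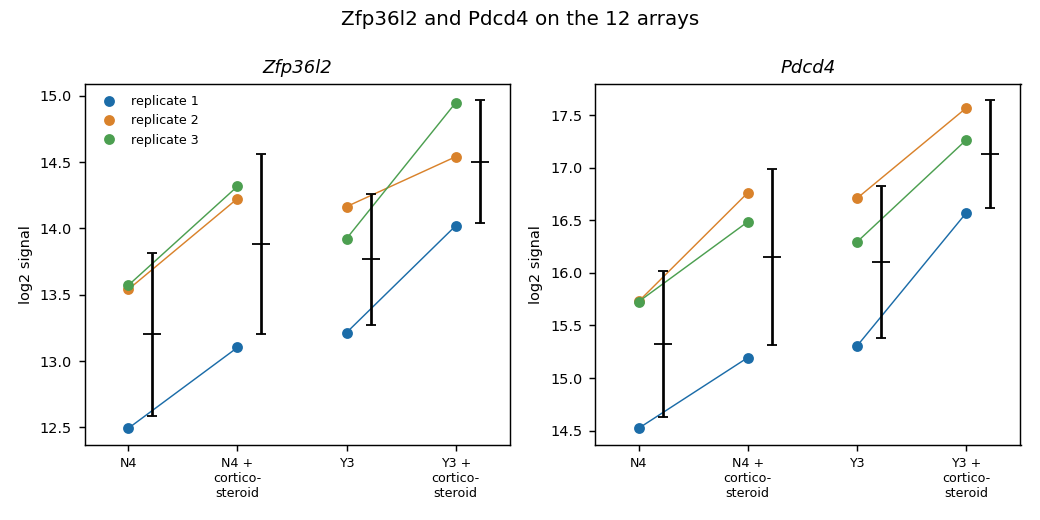
Log2 signal of Zfp36l2 and Pdcd4 (vertical axes) on the 12 arrays by group, with lines joining arrays of the same replicate number and black bars for mean ± SD (n = 3). Replicate 1 is lowest in all 4 groups, and each line goes up from a peptide without corticosteroid to the same peptide with it.

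Zfp36 (tristetraprolin) and Zfp36l1, the other members of the ZFP36 family, showed no such order. Zfp36 in N4 read 9.32, 9.31 and 9.54 without corticosteroid and 8.74, 9.14 and 9.81 with it, and in Y3 9.10, 9.47 and 10.89 without and 8.83, 9.89 and 10.60 with it. Its pairs differed in both directions under each peptide, with means of -0.16 (log2) in N4 and -0.05 in Y3. For Zfp36l1 the N4 arrays read 10.65, 10.70 and 11.60 without and 10.64, 10.47 and 11.79 with corticosteroid. The Y3 arrays read 11.06, 12.04 and 12.34 without and 11.43, 12.05 and 12.27 with it. The mean differences were -0.02 and 0.10, and replicate 3 was the highest array in 4 of 4 groups for both genes.

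The Roquin genes and Regnase-1 also stayed close to their untreated level on average. Rc3h1 in N4 read 11.44, 10.92 and 11.64 without corticosteroid and 11.60, 11.06 and 11.64 with it, and in Y3 11.72, 11.85 and 12.53 without and 12.001, 12.16 and 12.20 with it. Rc3h2 in N4 read 9.41, 9.55 and 10.41 without and 9.66, 9.45 and 10.23 with it, and in Y3 9.65, 10.09 and 10.55 without and 9.85, 10.37 and 10.36 with it. Zc3h12a in N4 read 7.66, 7.30 and 8.02 without and 7.71, 7.54 and 8.13 with it, and in Y3 7.40, 7.80 and 8.13 without and 7.74, 7.94 and 7.99 with it. Mean differences of the 3 genes lay between -0.01 and 0.14, and all of their untreated and treated groups overlapped.

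**Figure D2:**
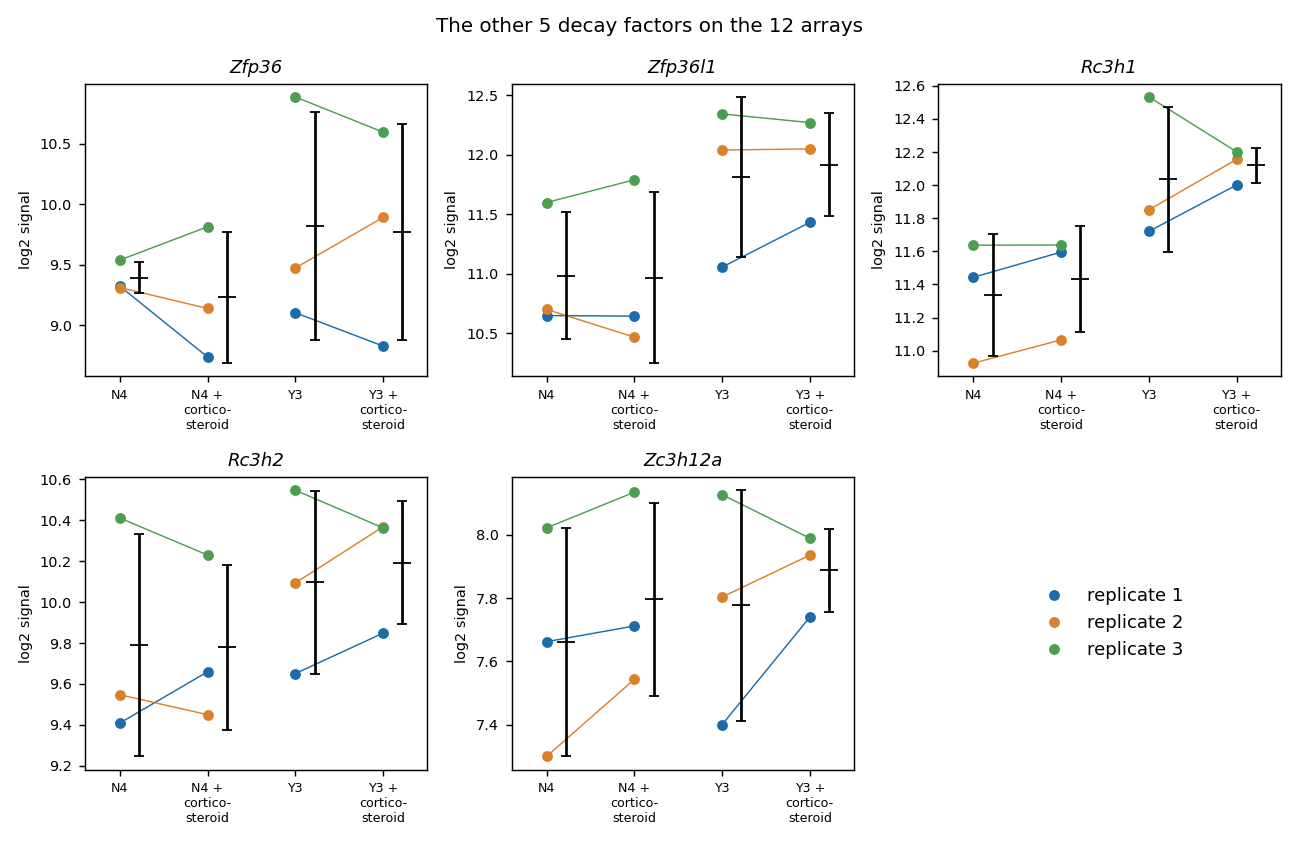
Log2 signal of Zfp36, Zfp36l1, Rc3h1, Rc3h2 and Zc3h12a (vertical axes) on the 12 arrays by group, with lines joining arrays of the same replicate number and black bars for mean ± SD (n = 3). Replicate 3 is highest in most groups, and Rc3h1 is the panel in which the Y3 arrays lie above all N4 arrays.

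In N4, 4 of the 7 genes were higher with corticosteroid in 3 of 3 pairs (Zfp36l2, Pdcd4, Rc3h1 and Zc3h12a), where 14.3% of all genes were. In Y3, Zfp36l2 and Pdcd4 were, where 15.9% of all genes were. No reading is drawn from these counts, since the genes were chosen on this contrast. Over all genes, limma called 0 under either peptide (0.0% of 39462). At an unadjusted p under 0.05 there were 749 in N4 and 1259 in Y3. With replicate number as a block it called 1 gene in N4 (0.00253%) and 0 in Y3 (0.0%, with 2649 at an unadjusted p under 0.05). The effect in Y3 minus that in N4 was 0.06 (log2) for Zfp36l2 and 0.21 for Pdcd4. By replicate it was 0.20, -0.31 and 0.28 for Zfp36l2 and 0.59, -0.18 and 0.21 for Pdcd4, so its sign varied between replicates. With each of the 12 arrays left out in turn, the Zfp36l2 difference stayed above 0, at 0.33 to 1.07 in N4 and 0.46 to 0.98 in Y3. That of Pdcd4 did too, at 0.42 to 1.30 and 0.63 to 1.33. For both genes the lowest values came without untreated replicate 1 of the same peptide, and the highest in N4 without treated replicate 1. In N4 the Pdcd4 difference was 0.51 without treated replicate 2. Each of the other 5 genes had an array whose omission turned the sign of its difference under at least 1 peptide.

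**Figure D3:**
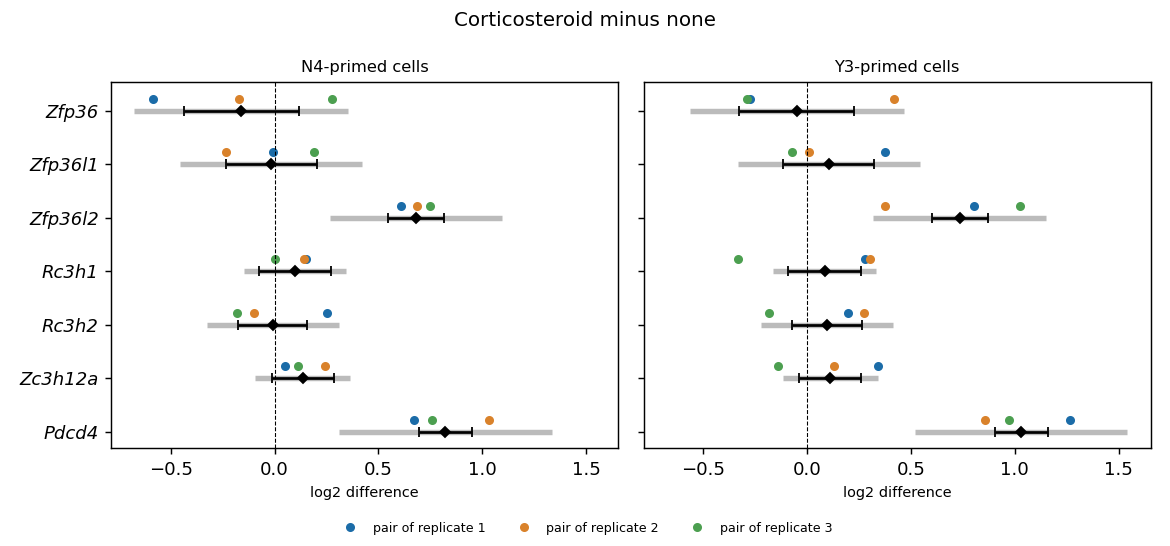
Log2 difference with minus without corticosteroid (horizontal axis) for the 7 genes under each peptide. Coloured points are the pairs of replicates 1 to 3, diamonds their mean, and black and grey bars ± SE with and without the replicate block; the points of Zfp36l2 and Pdcd4 all lie above 0.

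The comparison of Y3 with N4 asked how the genes differ with the strength of the priming peptide. All 7 genes had higher means in Y3 than in N4, both without and with corticosteroid. Without corticosteroid the median difference was 0.57 (log2), against -0.0026 over all 39462 genes and -0.011 over the 13747 above background on all arrays. With corticosteroid it was 0.62, against -0.0068 and -0.036. None of the 7 passed limma's test on group means alone (0 of 7). In each comparison 1 had an unadjusted p under 0.05, where 8.57% of all genes did without corticosteroid and 11.1% with it. That test called 12 genes (0.0304%) past the threshold without corticosteroid and 101 (0.256%) with it.

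Arrays with the same replicate number deviated together within a peptide and, for replicate 1, across peptides. Across peptides the other numbers matched less well: deviations of Y3 replicate 2 correlated at 0.423 with N4 replicate 3 and at 0.114 with N4 replicate 2. The fit with the number as a block is given beside the unblocked one. Its spread is smaller for genes whose corticosteroid difference is even across the pairs. Zfp36l2 and Pdcd4 were chosen for that difference, which may favour them, so their blocked calls are not independent of the choice. The blocked fit is described next. It called 1 of the 7 without corticosteroid (Pdcd4), where 670 of all genes were called higher (1.7%), and 3 of the 7 with it (Pdcd4, Zfp36l1 and Zfp36l2), where 1358 were (3.44%). Among the 13747 genes above background the shares called higher were 3.72% and 7.91%. Genes higher in Y3 in 3 of 3 pairs numbered 5 of the 7 without corticosteroid, against 15.5% of all genes and 20.8% of those above background. With it they numbered 6 of the 7, against 17.9% and 21.6%.

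Pdcd4 was 0.78 ± 0.51 higher in Y3 than in N4 without corticosteroid (log2, SE, 1.71-fold, adjusted p = 0.778). With the replicate block the SE was 0.13 and the adjusted p 0.0163. The pairs differed by 0.78, 0.98 and 0.57. With corticosteroid it was 0.98 ± 0.51 higher (1.98-fold, adjusted p = 0.535), with pairs at 1.37, 0.80 and 0.78, and the block gave an adjusted p of 0.00368. Leaving out each array in turn kept the second blocked call 12 of 12 times, and the first 7 of 12 times (0.70 to 0.87, adjusted p up to 0.0828). It was lost without N4 replicate 1 or 2, or without any 1 of the Y3 arrays. Without the block, a single array moved the difference further. It stood at 0.37 without N4 replicate 1, 0.47 without Y3 replicate 2 and 1.17 without Y3 replicate 1. The difference with corticosteroid stood at 0.51 without N4 replicate 1 with corticosteroid.

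Zfp36l2 differed by 0.57 ± 0.42 (log2, SE, 1.48-fold) without corticosteroid, in pairs of 0.72, 0.62 and 0.35, with an adjusted p of 0.812, or 0.0608 with the block. With corticosteroid it differed by 0.62 ± 0.42 (1.54-fold), in pairs of 0.92, 0.32 and 0.63, and the adjusted p of 0.684 became 0.0278 with the block. That blocked call was kept 7 of 12 times with an array left out (adjusted p up to 0.115), and was lost without any 1 of the N4 arrays with corticosteroid or without Y3 replicate 1 or 3 with corticosteroid. Unblocked, the first difference was 0.21 without N4 replicate 1 and 0.37 without Y3 replicate 2. The second was 0.23 without N4 replicate 1 with corticosteroid and 0.40 without Y3 replicate 3 with corticosteroid.

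Zfp36l1, which overlaps in function with Zfp36l2 in developing lymphocytes, differed by 0.83 ± 0.44 (log2, SE, 1.78-fold) without corticosteroid, in pairs of 0.41, 1.34 and 0.74, with an adjusted p of 0.672, or 0.0852 with the block. With corticosteroid it differed by 0.95 ± 0.44 (1.93-fold), in pairs of 0.79, 1.58 and 0.48, with an adjusted p of 0.467, or 0.0347 with the block. The blocked call was kept 7 of 12 times (adjusted p up to 0.16), and was lost without N4 replicate 1 or 2 with corticosteroid, Y3 replicate 3, or Y3 replicate 1 or 2 with corticosteroid.

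Rc3h1 was the member whose N4 and Y3 arrays did not overlap, in either comparison. Groups that did not overlap and were higher in Y3 made up 5.24% of all genes without corticosteroid and 7.91% with it. Among genes above background on all arrays the shares were 6.74% and 10.6%. Rc3h1 differed by 0.70 ± 0.25 without corticosteroid (log2, SE, 1.62-fold) and by 0.69 ± 0.25 with it (1.61-fold), in 3 of 3 pairs each. Its adjusted p was 0.439 and 0.308, or 0.0734 and 0.0519 with the block, so it passed the threshold under neither. The first difference was 0.45 without Y3 replicate 3.

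For the remaining 3 genes neither fit gave a call. Rc3h2 differed by 0.31 ± 0.32 (log2, SE) without corticosteroid and by 0.41 ± 0.32 with it, higher in 3 of 3 pairs each, with blocked adjusted p-values of 0.437 and 0.219. With an array left out the first of these differences ran from 0.083 (without Y3 replicate 3) to 0.62 (without N4 replicate 3). The second ran from 0.25 (without N4 replicate 2 with corticosteroid) to 0.64 (without N4 replicate 3 with corticosteroid). Zfp36 differed by 0.43 ± 0.51 and 0.54 ± 0.51. Its second value was 0.13 without Y3 replicate 3 with corticosteroid and 1.01 without Y3 replicate 1 with corticosteroid. Its first value rested on the pair of replicate 3, at 1.35 against -0.22 and 0.16. Zc3h12a differed by 0.12 ± 0.23 and 0.09 ± 0.23, with pairs on both sides of 0.

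**Figure D4:**
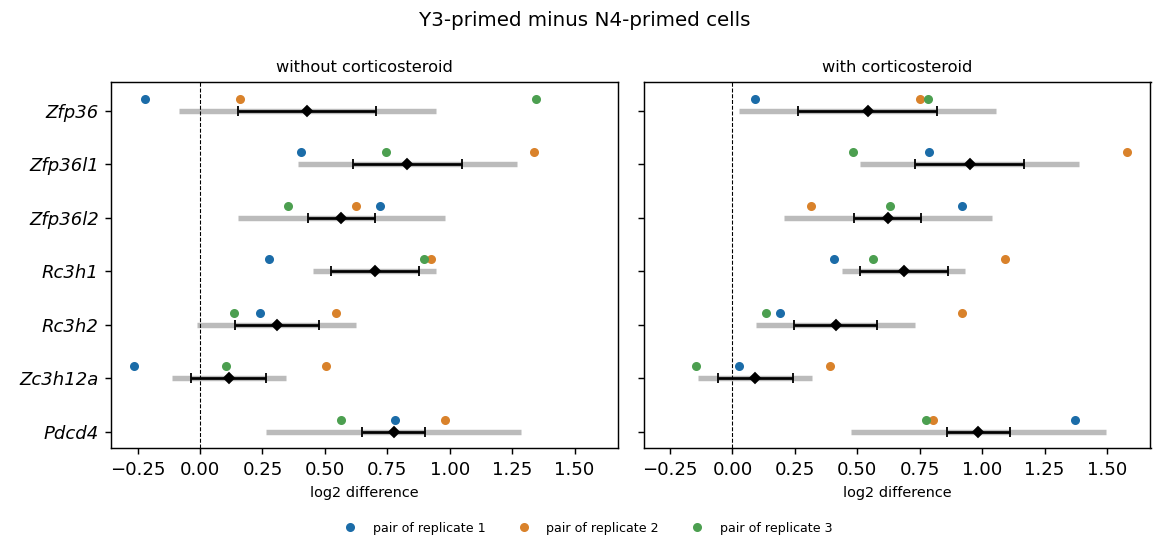
Log2 difference Y3 minus N4 (horizontal axis) for the 7 genes, without and with corticosteroid. Coloured points are the pairs of replicates 1 to 3, diamonds their mean, and black and grey bars ± SE with and without the replicate block; all diamonds lie above 0, and the black bars of Zfp36l2 and Pdcd4 are far shorter than the grey ones.

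The markers of CD8 T cells moved with the peptide as well, and in bulk cultures fewer cells of a type and less RNA per cell cannot be told apart. All 6 were higher in Y3, with median differences of 0.46 (log2) without and 0.51 with corticosteroid, and the block called 2 and 3 of them. Their summed signal lay at 18.22 to 18.45 (log2) in N4, 18.10 to 18.47 in N4 with corticosteroid, 18.47 to 19.18 in Y3 and 18.62 to 19.08 in Y3 with corticosteroid, and was lowest in replicate 1 in all 4 groups. The B cell markers, of which only Cd79b was above background, summed to 7.48 to 7.88, 7.43 to 7.87, 7.75 to 8.40 and 7.78 to 8.23 in the same order. With the block Cd79b was called higher in Y3 in both comparisons. Under corticosteroid the CD4 T cell marker Cd4 and the NK cell marker Klrb1c were called higher too. Neither of these lay above background on all 3 arrays of any group. The part of any of these markers in the peptide differences was not tested. With against without corticosteroid, the CD8 marker medians differed by -0.07 (log2) in N4 and -0.02 in Y3. Cd68 was lower with corticosteroid in all 6 pairs, from 8.60, 9.71 and 10.43 to 8.18, 9.35 and 10.32 in N4 and from 8.40, 9.89 and 10.21 to 7.86, 8.91 and 10.13 in Y3. The summed signal of the 2 NK cell markers, neither above background on all 3 arrays of any group, went from 5.72, 5.59 and 5.34 to 6.72, 6.55 and 5.94 in Y3 and from 5.26, 5.31 and 5.52 to 5.58, 5.78 and 5.39 in N4. The part of these markers in the corticosteroid differences of Zfp36l2 and Pdcd4 was not tested.

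Ordered by group mean, Pdcd4 stood at 15.33 ± 0.70 (log2, SD, n = 3) in N4, 16.10 ± 0.72 in Y3, 16.15 ± 0.84 in N4 with corticosteroid and 17.13 ± 0.51 in Y3 with corticosteroid. Zfp36l2 had the same order, at 13.20 ± 0.61, 13.77 ± 0.49, 13.88 ± 0.68 and 14.50 ± 0.47. Neighbours in these orders overlapped throughout. For Rc3h1 the step from N4 with corticosteroid (11.43 ± 0.32) to Y3 (12.03 ± 0.44) was the only one, among all 7 genes, at which neighbouring groups did not overlap. Rc3h1 was at 11.33 ± 0.37 in N4 and 12.12 ± 0.11 in Y3 with corticosteroid.

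For every gene of the 7 but Rc3h1, the means of the replicate numbers lay further apart than those of any compared groups. Those of Rc3h1 spanned 0.50 (log2), against 0.70 between Y3 and N4 without corticosteroid. Averaged over the 4 groups, Pdcd4 read 15.40 in replicate 1, 16.69 in replicate 2 and 16.44 in replicate 3. Zfp36l2 read 13.21, 14.12 and 14.19. Both were lowest in replicate 1 in 4 of 4 groups. Zfp36, Zfp36l1, Rc3h1 and Zc3h12a were highest in replicate 3 in 4 of 4 groups, with Zfp36 at 8.998, 9.45 and 10.21 and Zfp36l1 at 10.95, 11.32 and 12.001. The summed markers of dendritic cells and macrophages, which are mostly Cd68, were lowest in replicate 1 and highest in replicate 3 in all 4 groups (8.99, 9.91 and 10.56 in N4). Their part in the members' spread was not tested.

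Across the 12 arrays, which share groups and replicate numbers, Zfp36l2 and Pdcd4 had a Pearson r of 0.970 (Spearman 0.944). It was 0.944 after the group means were removed and 0.561 after the replicate means were removed too. Zfp36l1 and Rc3h2 correlated at 0.934, and at 0.780 after both were removed, and Zfp36l1 and Zc3h12a at 0.785 and 0.867. By contrast Zfp36l2 and Rc3h1, at 0.413 over all arrays, stood at -0.839 after both were removed. With both removed, only 6 of the 12 values of a gene were free to vary. These pairs were named out of all pairs of the 7 genes, and their correlations were not tested. Among the 6494 genes compared, which leave out the 7 themselves, those most like Zfp36l2 over the 12 arrays were Mgst2, a membrane-bound glutathione transferase (r = 0.956), Apobec3, a cytidine deaminase that restricts retroviruses (0.952), Zfp607 (0.927), Cd84, a receptor of the SLAM family (0.915), and Prrc2c (0.914). On the same terms, those most like Pdcd4 were Apobec3 (0.971), Zyg11b, a subunit of a ubiquitin ligase (0.949), Zcchc6, which adds uridines to RNA ends (0.944), Pde2a, a cyclic nucleotide phosphodiesterase (0.943), and Mgst2 (0.938).

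Lists of the machinery around these genes, 118 genes on the array in all, gave the setting. Unblocked, 0 of the 118 passed without corticosteroid, and 20 of them had an unadjusted p under 0.05, where 8.57% of all genes did. With corticosteroid 2 passed, both lower in Y3 (1.69%, against 0.256% of all genes): Tnfrsf4 and Eif4ebp1. With the block, 3 were higher and 5 lower in Y3 without corticosteroid (6.78%, against 2.94% of all genes and 6.44% of those above background). With corticosteroid 8 were higher and 12 lower (16.9%, against 6.53% and 14.8%). Between treated and untreated cells 0 of the 118 were called under either peptide, with or without the block. Unblocked, 0 in N4 and 5 in Y3 had an unadjusted p under 0.05, where 1.9% and 3.19% of all genes did. With the block 4 and 10 had, where 3.32% and 6.71% of all genes did.

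Among 16 deadenylation genes, which are subunits of the CCR4-NOT complex that the ZFP36 and Roquin proteins recruit, its adaptors Tob1 and Tob2, and the separate deadenylases Pan2, Pan3 and Parn, the median difference between Y3 and N4 was -0.0045 (log2) without and 0.0067 with corticosteroid. Cnot6l, a catalytic subunit of CCR4-NOT, read 11.54, 12.05 and 12.35 in N4 and 12.36, 12.73 and 12.87 in Y3, so the groups did not overlap. The difference was 0.67 ± 0.25 (SE, adjusted p = 0.481, or 0.0288 with the block), and 0.87 with corticosteroid (0.188, or 0.00631). The blocked calls were kept 6 and 12 of 12 times with an array left out. Rqcd1, a subunit of the complex's core, differed by -0.41 ± 0.39 and -0.30 ± 0.39, and Cnot3, a regulatory subunit, by -0.29 ± 0.11 and -0.21 ± 0.11, neither called in either fit. The poly(A) ribonuclease Parn was called lower in Y3 with corticosteroid only with the block, and kept that call 7 of 12 times with an array left out. In the decapping list (16 genes, medians -0.07 and -0.06) there was no call without corticosteroid even with the block. In that blocked fit 5 had an unadjusted p under 0.05, where 15.8% of all genes did. With corticosteroid and the block, Dcp2, the decapping enzyme, and Ddx6, its helicase partner, were higher, and Lsm4 and Lsm5, of the ring that binds deadenylated ends, were lower. With an array left out, these calls were kept 2 of 12 times for Dcp2 (adjusted p up to 0.156), 8 for Ddx6, 12 for Lsm4 and 7 for Lsm5. Lsm4 differed by -0.74 ± 0.21 (blocked adjusted p 0.00757), after -0.45 ± 0.21 without corticosteroid (0.0784). Xrn1, the exonuclease that follows decapping, was not called, at 0.46 ± 0.17 (0.0912) and 0.42 ± 0.17 (0.0851), nor was Lsm3, at -0.40 ± 0.30 and -0.50 ± 0.30. Of the 16 exosome genes, 4 had a higher mean in Y3 without corticosteroid and 3 with it, with medians of -0.16 and -0.22. Exosc6 and Exosc10 were called lower with corticosteroid and the block, Exosc6 by -0.97 ± 0.23 (0.0134), after -0.58 ± 0.23 without corticosteroid (0.124). The calls were kept 9 of 12 times for Exosc6 and 2 of 12 times for Exosc10 with an array left out. Exosc2 (-0.51 ± 0.50 and -0.60 ± 0.50) and Exosc8 (-0.48 ± 0.20 and -0.68 ± 0.20) were not called. Of 10 genes of nonsense-mediated decay (medians 0.02 and -0.10), Smg6, its endonuclease, was called higher with the block in both comparisons, by 0.32 ± 0.13 (0.0396) and 0.56 ± 0.13 (0.00298). The first of these calls was lost with any 1 of the 12 arrays left out. Smg9 (-0.29 ± 0.20 and -0.30 ± 0.20) and the kinase Smg1 (0.23 ± 0.19 and 0.49 ± 0.19) were not called.

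The list of 22 other regulators of RNA stability, mostly RNA-binding proteins but also the kinases Mapkapk2 and Mapk14 and the protease Malt1, had medians of 0.07 and 0.11 and held calls in both directions. Celf2, a splicing and stability factor, was higher in Y3 by 0.62 ± 0.22 (log2, SE, blocked adjusted p 0.0182) and by 0.77 ± 0.22 with corticosteroid (0.00459), calls kept 8 and 12 of 12 times with an array left out. Tia1, N4bp1 and Ythdf3 were called higher with corticosteroid and the block only, N4bp1 by 0.53 ± 0.23 (0.0468, against 0.0522 without corticosteroid). These calls were kept 9 of 12 times for Tia1, 2 for N4bp1 and 7 for Ythdf3. Mapkapk2, the kinase that phosphorylates tristetraprolin and so weakens its action, read 13.72, 13.37 and 12.83 in N4 and 12.89, 12.56 and 12.54 in Y3, which overlapped. It differed by -0.64 ± 0.28 (0.041) and by -1.03 ± 0.28 with corticosteroid (0.00389). The first call was kept 3 of 12 times (adjusted p up to 0.163) and the second 12 of 12 times.

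Most known targets of the decay factors had lower means in Y3. Of the 20 on the array, 12 lay above background in at least 1 group. Of all 20, 3 had a higher mean in Y3 without corticosteroid and 5 with it, with medians of -0.23 and -0.14. The medians of the 12 above background were -0.78 and -0.64. With the block 0 were called higher in either comparison, and Tnfrsf4, Myc and Lif lower in both, with Icos lower under corticosteroid. These were 3 of the 20 without corticosteroid and 4 with it, where 1.24% and 3.09% of all genes were called lower. Among genes above background on all arrays the shares called lower were 2.72% and 6.9%. Tnfrsf4, the costimulatory receptor OX40, read 15.16, 14.26 and 14.92 in N4 and 12.86, 12.83 and 12.48 in Y3. That is a difference of -2.05 ± 0.34 (log2, SE, adjusted p = 0.0967, or 0.00567 with the block), and of -2.31 ± 0.34 with corticosteroid (0.0405, or 0.00247). Lif, a cytokine, read 10.09, 9.07 and 8.94 in N4 and 6.62, 6.09 and 6.88 in Y3, a difference of -2.83 ± 0.42 (0.0692, or 0.00303). Groups of both genes lay clear of each other, and their blocked calls were kept with each array left out in turn. Those of Myc were kept 7 of 12 times without corticosteroid and 3 of 12 times with it, and that of Icos 7 of 12 times. Ifng, the cytokine interferon gamma, spread too widely for a call. It read 15.06, 8.39 and 9.78 in N4 and 9.05, 6.004 and 8.94 in Y3 (difference -3.08 ± 2.08, blocked adjusted p 0.238), and N4 replicate 1 lay far above the rest. No measurement here links these targets to the level of the decay factors.

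The list of translation start, where Pdcd4 acts, held 18 genes with medians of -0.04 and -0.11. Eif4ebp1, an inhibitor of the cap-binding protein that stress and mTOR signalling control, read 11.30, 11.20 and 11.41 in N4 and 10.58, 10.38 and 10.43 in Y3. It differed by -0.84 ± 0.16 (log2, SE, adjusted p = 0.152, or 0.0126 with the block), and by -1.18 ± 0.16 with corticosteroid (0.0345, or 0.00215). With an array left out the blocked calls were kept 10 and 12 of 12 times. Eif4e, the cap-binding protein, was called lower with corticosteroid and the block (-0.73 ± 0.34, 0.0411) and kept that call 2 of 12 times with an array left out. Eif4ebp2, the related inhibitor, differed by 0.54 ± 0.28 and 0.60 ± 0.28 without a call (blocked adjusted p 0.415 and 0.305).

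**Figure D5:**
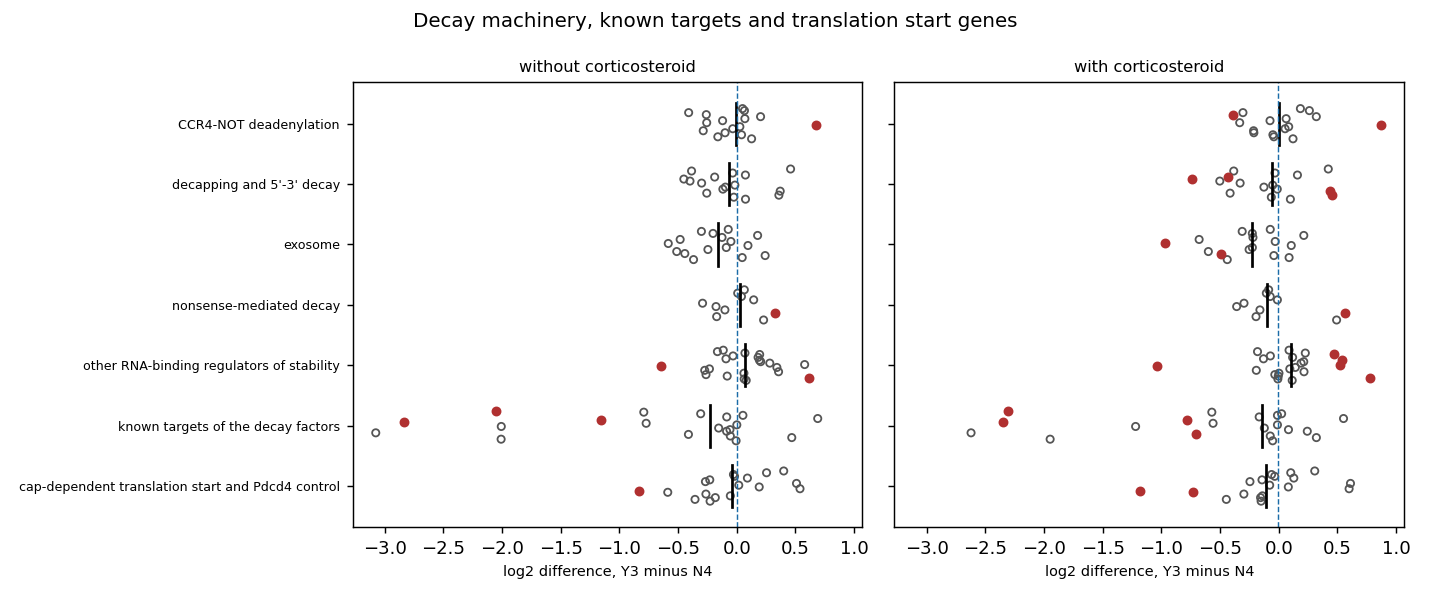
Log2 difference Y3 minus N4 of each gene (points) in the lists of decay machinery, targets and translation start, without and with corticosteroid. Filled red points have an adjusted p under 0.05 with the replicate block, black lines are list medians and the dashed blue line is the median of all genes; the lowest points, down to -3.08 (Ifng), are in the list of known targets.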

How the data were processed

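RNA of 12 samples was hybridised to Affymetrix mouse transcriptome arrays. The authors deposited linear signal intensities per transcript cluster, summarised at gene level by SST-RMA per the file headers. No source used here names the annotation's genome build. The intensities (3.27 to 994483) were converted to log2 without a pseudocount or renormalization, where the design had assumed log2 values. Each symbol was represented by its row of highest mean, and symbols are the array's own. The test was limma 3.58.1 (R 4.3.3) on group means, with 12 arrays sharing 1 spread, two-sided p-values adjusted by Benjamini-Hochberg over 39462 genes and a threshold of 0.05. The labels' replicate numbers were checked: deviations from the group means of same-numbered arrays correlated across genes at 0.114 to 0.815 in all 18 pairings, which met the rule for a pairing, so a fit with the number as a block is given beside the unblocked one. Some arrays of different number correlated more across peptides. N4 replicate 3 correlated at 0.423 with Y3 replicate 2 and at 0.419 with Y3 replicate 3, or, with corticosteroid in Y3, at 0.409 and 0.219. Y3 replicate 2 correlated at only 0.114 with N4 replicate 2. With the N4 corticosteroid arrays it stood at 0.481 for replicate 3 and 0.208 for replicate 2. Arrays of replicate 1 correlated most with each other throughout. Members, lists and tests were chosen with earlier results of these data known. From each list the text names up to 3 genes above background with the largest absolute peptide difference without corticosteroid. Parn, Dcp2, Ddx6, Lsm5, Exosc10, Tia1, Ythdf3, Myc and Icos were named after their values were seen. Likeness was taken over genes with a mean log2 signal of at least 8 by Pearson r, leaving out the members, Gm-named and Rik-named genes, small RNAs and receptor segments. No protein sequence was used here. Plots were drawn with matplotlib 3.10.9 and tables made with pandas 2.3.3 and numpy 2.4.6, under Python 3.11.15. The unblocked fit was tried on simulated data, with independent noise of equal spread for all genes and no shift between replicate numbers. The blocked fit was not tried in this way. The number of arrays limits the precision.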

Additional observations from a re-analysis of the deposited data

How the results depend on the processing

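The replicate block decided every call among the 7 genes but those under array weights. Past the threshold were 0 of 7 without the block, also with any 1 replicate number left out, and 1 (without corticosteroid) and 3 (with it) under it. With the block and each array left out these counts ran from 0 to 2 and from 1 to 4. Array weights gave 2 with corticosteroid, Zfp36l1 and Rc3h1. Over all genes the block moved the counts from 12 to 1160 and from 101 to 2576 for the peptides, and from 0 to 1 for corticosteroid in N4. Of the 118 list genes, 2 to 9 and 8 to 18 were called under the block with an array left out. Zfp36 without corticosteroid ran from -0.10 (without Y3 replicate 3) to 0.79 (without Y3 replicate 1) with an array left out, and stood at -0.029 without replicate 3 of every group. Zc3h12a without corticosteroid ran from -0.079 (without replicate 2 of every group) to 0.30 (without replicate 1), with -0.065 without N4 replicate 2 (-0.035 with the block) and -0.060 without Y3 replicate 3. With corticosteroid it ran from -0.059 (without replicate 2) to 0.26 (without N4 replicate 3 with corticosteroid), with -0.035 without N4 replicate 2 with corticosteroid and -0.030 with the block without that replicate of Y3. The number of the 7 genes above 0 with corticosteroid, 4 in N4 and 6 in Y3, ran from 2 to 7 in both with an array left out. The causes were not tested. Median centring, quantile normalization, the filter on dim genes and the intensity trend changed no call and no direction of the peptide differences of the 7 genes. The deposited series table held values identical to the gene-level table, and each of the 7 genes has 1 row, so those alternatives changed nothing. Leaving out a whole replicate number, the block with an array left out and the single pairs were chosen after seeing the data.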
